A study of Mus musculus with 2 samples.

Results

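H3K9me2, histone H3 carrying 2 methyl groups on lysine 9, was read at the genes that encode the enzymes which write and erase it. The 10 genes were taken by name from 21774 protein-coding genes of the mm10 RefSeq set: the erasers Jmjd1c, Kdm3a, Kdm3b, Kdm4c and Phf2, and the writers or writer partners Ehmt1, Ehmt2, Wiz, Setdb1 and Suv39h2. All 10 were found in the gene table. The data were 2 CUT&Tag peak lists from activated B cells of C57BL/6 mice, in which an antibody to H3K9me2 directs a transposase to marked chromatin. The WT library came from wild-type cells (33474010 tags) and the KO library from cells with the genotype given as jmjd1c B KO (34502392 tags). The activating agent, the line or Cre that removes Jmjd1c, the age of the mice and any pooling of animals are not given in the sources used here. Each genotype has 1 library, so differences between them stand without replicates or p-values. The genes were listed with the knowledge that none of them carries a peak, so that absence describes them and tests nothing.

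H3K9me2 is written mainly by a complex of the SET-domain proteins Ehmt1 (GLP) and Ehmt2 (G9a), which the zinc finger protein Wiz helps to hold on chromatin. Setdb1 and Suv39h2 carry lysine 9 on to the trimethylated state, Setdb1 chiefly at retroelements and Suv39h2 at heterochromatin around centromeres. JmjC-domain proteins of the KDM3 family (Kdm3a, Kdm3b and Jmjd1c), Kdm4c and Phf2 belong to the opposing side, which takes methyl groups off. H3K9me2 itself is a mark of silent chromatin, found in gene-poor regions and across genes a cell does not use.

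The start regions of these genes are shown because the peak lists leave them blank. RefSeq's table for GRCm38.p6, the assembly behind mm10, gave 17 windows of 300 bases for 9 of the 10 genes, each with 250 bases before a listed start and 50 after it. Kdm3b had no entry. The letters searched were CG, which reads the same on both strands. Jmjd1c had 47 CpG in the window of its first listed start, a number that 1.83% of the 21263 windows of coding genes reached, and 13 in an internal one. The first listed start of Jmjd1c, 67127088, also lies inside its listed span, which begins at 67096351. Phf2 had the most, 63, reached by 0.0423% of windows. Kdm4c differed between its starts, with 0 CpG at the first listed one and 28 at the internal one. Ehmt2 had 28 in the window of its first listed start, the one printed, and 40 at its second, which 5.08% of windows reached. Only the 250 bases before each start are printed, 5′ to 3′, with CG in capitals.
Jmjd1c, first listed start, chr10:67126838-67127087, plus strand: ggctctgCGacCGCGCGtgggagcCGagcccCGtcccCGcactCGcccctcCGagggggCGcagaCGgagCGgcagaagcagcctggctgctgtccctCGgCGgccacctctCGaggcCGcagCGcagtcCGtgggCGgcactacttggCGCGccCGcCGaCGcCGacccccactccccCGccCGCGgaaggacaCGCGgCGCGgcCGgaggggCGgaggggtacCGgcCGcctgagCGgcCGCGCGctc
Jmjd1c, internal start, chr10:67185500-67185749, plus strand: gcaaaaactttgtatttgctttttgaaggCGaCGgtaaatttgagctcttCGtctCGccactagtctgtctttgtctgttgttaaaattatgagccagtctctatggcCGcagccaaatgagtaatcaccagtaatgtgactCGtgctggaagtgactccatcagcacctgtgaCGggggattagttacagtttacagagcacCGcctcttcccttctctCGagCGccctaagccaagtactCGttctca
Phf2, chr13:48870886-48871135, minus strand: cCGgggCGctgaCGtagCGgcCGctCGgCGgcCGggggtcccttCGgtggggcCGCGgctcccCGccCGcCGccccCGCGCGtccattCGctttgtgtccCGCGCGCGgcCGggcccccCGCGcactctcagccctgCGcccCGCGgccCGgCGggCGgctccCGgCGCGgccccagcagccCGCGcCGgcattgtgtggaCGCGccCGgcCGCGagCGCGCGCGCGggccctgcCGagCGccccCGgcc
Kdm4c, first listed start, chr4:74242247-74242496, plus strand: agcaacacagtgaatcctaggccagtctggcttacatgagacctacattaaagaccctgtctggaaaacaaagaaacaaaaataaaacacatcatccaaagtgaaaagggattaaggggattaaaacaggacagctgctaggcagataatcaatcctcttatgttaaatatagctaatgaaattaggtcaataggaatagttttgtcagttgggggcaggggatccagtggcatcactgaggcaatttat
Kdm4c, internal start, chr4:74251629-74251878, plus strand: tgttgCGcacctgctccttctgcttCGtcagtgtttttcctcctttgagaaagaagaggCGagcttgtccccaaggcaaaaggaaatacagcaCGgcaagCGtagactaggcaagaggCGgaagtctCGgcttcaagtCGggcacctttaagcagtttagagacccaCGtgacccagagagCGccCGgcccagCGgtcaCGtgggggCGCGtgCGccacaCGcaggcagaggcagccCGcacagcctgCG
Ehmt2, first listed start, chr17:34898224-34898473, plus strand: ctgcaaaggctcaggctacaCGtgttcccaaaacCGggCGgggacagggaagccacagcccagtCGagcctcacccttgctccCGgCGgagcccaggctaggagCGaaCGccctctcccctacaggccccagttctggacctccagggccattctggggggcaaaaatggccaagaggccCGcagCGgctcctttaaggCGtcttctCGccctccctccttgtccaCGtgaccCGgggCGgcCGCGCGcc
By eye the first Jmjd1c sequence and that of Phf2 are dense in capitals, whereas the first Kdm4c sequence has none. The richest window of each gene held 34 CpG as the median over the 9 genes and 15 over the 17492 coding genes with a window. The 9 values ran from 15 at Setdb1 to 63 at Phf2. A richest window tends to hold more CpG where a gene has more windows. The 9 genes had 17 windows and the 17492 coding genes had 21263, so this comparison favours the 9. A CpG count describes these letters and says nothing of methylation in these cells.

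No peak lay in or within 2 kb of any of the 10 genes in either library. Among all protein-coding genes, 90.3% had no WT peak, 90.1% no KO peak and 88.2% neither at that distance. At 100 kb from the gene body, 9 of the 10 were still free of peaks in WT and the same 9 in KO. Among all protein-coding genes, 72.0% were free of WT peaks, 71.4% of KO peaks and 68.3% of both at 100 kb. Kdm4c was the gene with peaks, 3 in each library. At 1 Mb, 4 genes were without a peak in WT (Kdm3a, Kdm3b, Ehmt2 and Wiz), against 24.4% of coding genes. In KO 3 were without one (Kdm3b, Ehmt2 and Wiz), against 22.7%. The median distance to the nearest peak was 650.1 kb in WT and 662.5 kb in KO, against 344.8 and 323.9 kb over all protein-coding genes. The set of all protein-coding genes includes 1925 with a WT peak and 1948 with a KO peak in the gene body, at distance 0. The 10 genes were listed as having none, so part of the gap was set by the choice. With 10 genes chosen by name, these shares and distances are a description of the loci and no measure of what sets them apart.

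**Figure D1:**
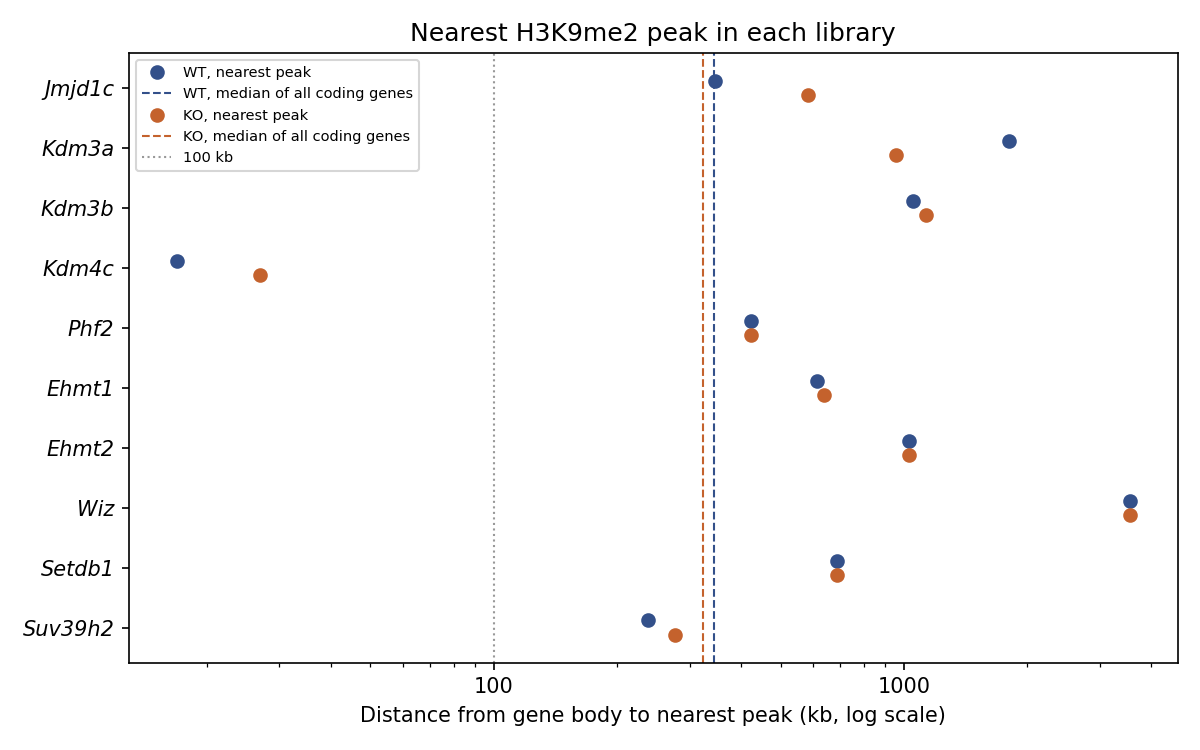
Distance from each gene body to the nearest H3K9me2 peak in kb on a log axis, with a blue point for WT and an orange point for KO, dashed lines for the median of all protein-coding genes and a dotted line at 100 kb. Kdm4c lies at 16.8 and 26.8 kb, left of the dotted line, and Wiz lies farthest out at 3554 and 3552 kb.

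Ordered by distance in WT, the genes ran from Kdm4c at 16.8 kb through Suv39h2 at 238 kb, Jmjd1c at 347 kb, Phf2 at 423 kb, Ehmt1 at 613 kb and Setdb1 at 687 kb. Ehmt2 at 1030 kb, Kdm3b at 1052 kb, Kdm3a at 1802 kb and Wiz at 3554 kb followed. The KO library gave 26.8 kb for Kdm4c, 276 kb for Suv39h2, 423 kb for Phf2, 584 kb for Jmjd1c and 638 kb for Ehmt1. It gave 687 kb for Setdb1, 955 kb for Kdm3a, 1028 kb for Ehmt2, 1134 kb for Kdm3b and 3552 kb for Wiz. The distances of Phf2, Setdb1, Ehmt2 and Wiz differed by at most about 2 kb between the libraries, whereas the KO peak was nearer than the WT peak at Kdm3a (955 against 1802 kb) and farther at Jmjd1c (584 against 347 kb). How far neighbours in this order would trade places in another library was not measured.

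Jmjd1c, the gene named in the KO genotype, spans 160 kb of chromosome 10 from 67096351 to 67256326. Its listed span overlaps Reep3, which encodes a protein that shapes the endoplasmic reticulum. On the right Nrbf2, an autophagy gene, begins 10.4 kb away, and beyond Reep3 the next coding gene on the left is Ctnna3, 2093 kb away. All Jmjd1c peaks within 1 Mb lay on the left, in this gene-poor stretch: 7 in WT (exact 95% Poisson interval 2.81 to 14.4) and 6 in KO (2.20 to 13.1), with 0 on the right in both. The nearest WT peak lay from 66748837 to 66749427 with a pileup of 26.1 extended tags, and no KO peak overlapped it. The nearest KO peak lay from 66511821 to 66512050 with a pileup of 17.0 and overlapped a WT peak. Of the 7 WT and 6 KO peaks, 2 in each library overlapped one another by at least 1 bp. Folds over the local background, which are the authors' values, ran from 2.48 to 3.41 in WT and from 2.82 to 4.01 in KO, and 5 of the 7 and 5 of the 6 exceeded the medians of their whole lists, 2.72 and 3.08. In a peak list a deleted exon leaves no trace where no peak is called, so these lists do not check the deletion.

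The KDM3 relatives had fewer peaks than Jmjd1c within 1 Mb, though at 2 Mb Kdm3b had more, with 21 in WT and 28 in KO against 18 and 13. Kdm3a, on chromosome 6 from 71588970 to 71632990 between Chmp3 and Reep1, had 0 WT peaks and 1 KO peak within 1 Mb. That KO peak, from 70633851 to 70634039, was 189 bp wide, the smallest width the caller allows in that library, with a pileup of 13.4. It alone separates the libraries at this locus, where the nearest WT peak on that side was 3577 kb away. Kdm3b, on chromosome 18 from 34777008 to 34839370 between Fam53c and Reep2, had no peak within 1 Mb in either library, which allows up to 3.69 by an exact Poisson interval. The nearest peak on the left was 1052 kb away in WT and 1134 kb in KO, beside Epb41l4a. On the right it was 2115 kb away in both, inside Pcdha1 of the clustered protocadherins, and the WT and KO peaks there overlapped.

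Kdm4c, which encodes an eraser of trimethylated and dimethylated lysine 9, was the locus closest to peaks at the authors' q cutoff of 0.01. It spans 163 kb of chromosome 4 from 74242497 to 74405864, with Frmd3 40.3 kb to its left and no further coding gene for 871 kb to its right, where Dmac1 lies. The gene is on the plus strand, so its left side is upstream. The nearest WT peak, from 74224937 to 74225655, ended 16.8 kb upstream of the gene and had no KO counterpart. A second WT peak upstream, from 74214927 to 74215895, overlapped the nearest KO peak, from 74214811 to 74215663. The third WT peak within 100 kb lay 54.9 kb downstream, and the other KO peaks within that range lay 37.7 and 50.9 kb upstream, none of them overlapped by the other library. Within 1 Mb there were 15 peaks in WT (8.40 to 24.7) and 16 in KO (9.15 to 25.98), of which 8 in each were overlapped by the other list. Kdm4c peaks had low pileups, 16.7 to 20.7 in WT and 13.1 to 17.1 in KO, against medians of 25.3 and 19.1 over the whole lists. Their folds were not low: 15 of the 15 in WT (2.84 to 3.43) and 15 of the 16 in KO (3.06 to 3.65) exceeded the list medians of 2.72 and 3.08. From the gene midpoint rather than its edge, Kdm4c had no KO peak within 100 kb. At a q of 1e-05 or lower it had 0 peaks within 1 Mb in both libraries. Its nearest peak was then 1725 kb away in each, farther than at Suv39h2 (405 kb in each) and Setdb1 (687 kb in each).

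Phf2, a PHD finger and JmjC protein gene, lies on chromosome 13 from 48801750 to 48870885, between Barx1 and Fam120a. Phf2 had 10 WT peaks within 1 Mb (4.80 to 18.4) and 12 KO peaks (6.20 to 20.96). On the left there were 8 in each library, between Phf2 and Id4 and beyond, and the nearest WT and KO peaks there overlapped, 423 kb from the gene. On the right there were 2 in WT and 4 in KO, all inside Gm272, with none overlapped by a peak of the other library.

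**Figure D2:**
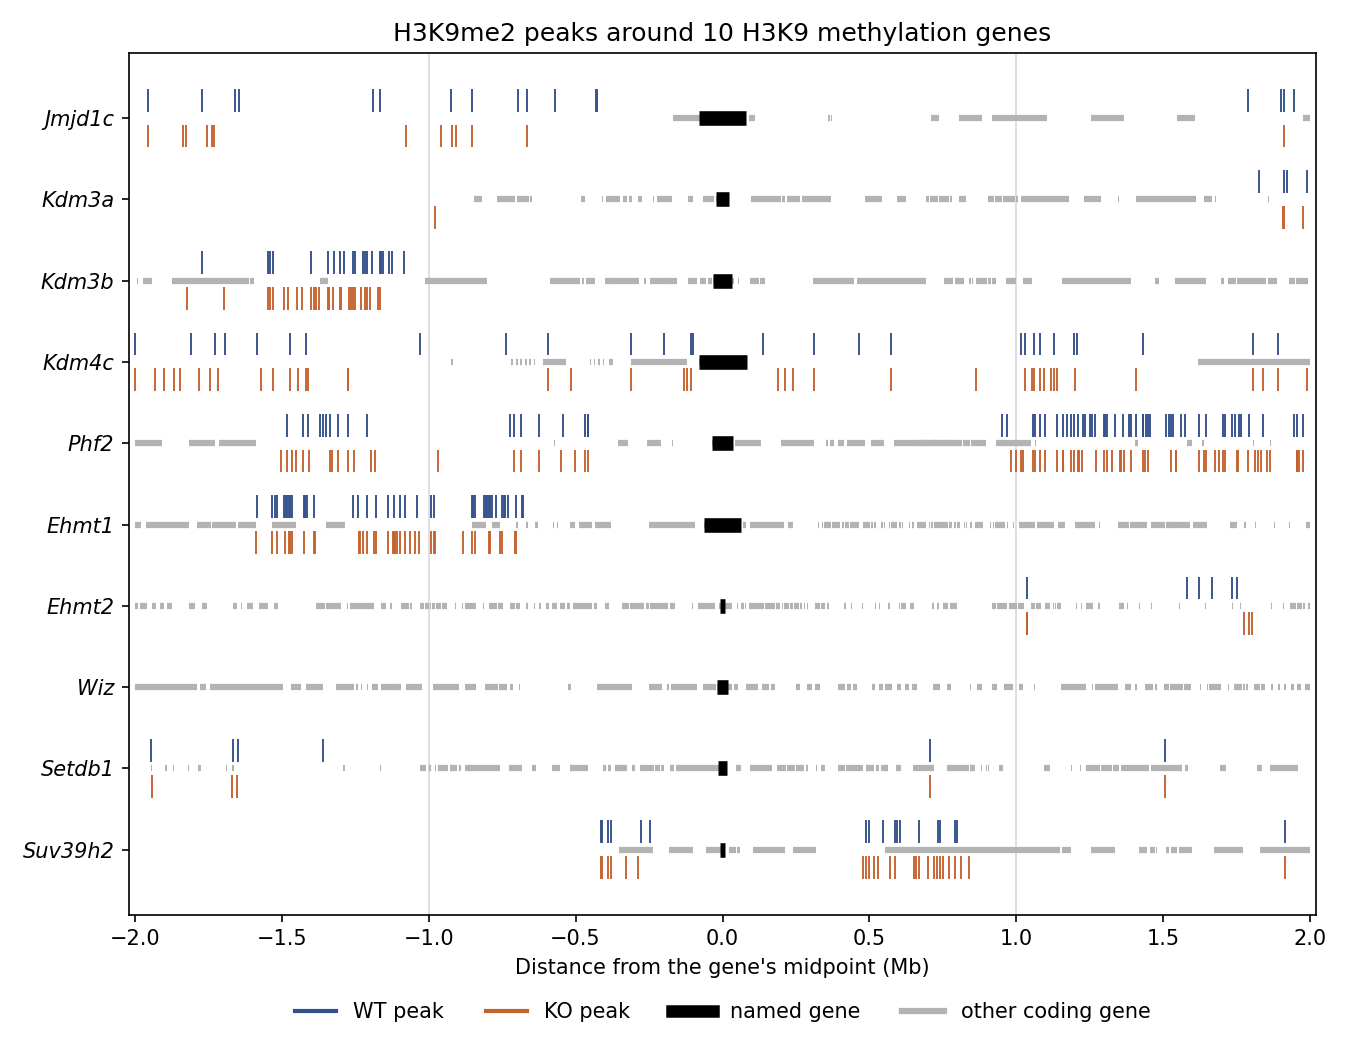
Peaks within 2 Mb of the midpoint of each gene, with distance in Mb on the x axis, WT peaks as blue ticks above and KO peaks as orange ticks below each line, the named gene in black and other protein-coding genes in grey. The ticks of Jmjd1c within 1 Mb (7 WT and 6 KO peaks) all lie on its left, and Wiz has none in either library within 2 Mb.

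Among the writers, Ehmt2 had the most crowded gene neighbourhood. It is 15.6 kb long on chromosome 17 from 34898463 to 34914073, inside the major histocompatibility complex, with Zbtb12 1.60 kb to its left and Slc44a4 0.151 kb to its right. Within 1 Mb of Ehmt2 there were 120 other protein-coding genes, a number that 0.0276% of coding genes reached, and 0 peaks in both libraries. The nearest WT peak, from 35943619 to 35944077, and the nearest KO peak, from 35941582 to 35942191, lay near Ppp1r10 and did not overlap each other, though a further KO peak overlapped the WT one. Wiz, on the same chromosome from 32354047 to 32389501 between Akap8l and Rasal3, was 2.51 Mb to the left of Ehmt2, with 43 other coding genes and no peak within 1 Mb. The 2 genes lay in the same peak-free stretch, so their values are not independent.

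That stretch was the second longest between consecutive peaks in each library, 12.4 Mb in WT and 10.5 Mb in KO, where the median stretch was 18.1 and 18.3 kb. It ran from 25451993 to 35941581 on chromosome 17 with no peak in either list, and 305 protein-coding genes lay wholly within that part. Its left border in KO was a peak from 25451768 to 25451992, 2.56 kb from Tekt4, with a pileup of 44.5 and a fold of 10.1. WT had no peak at that place, and there the stretch went on to 23514112. In all, 3 of the 10 genes lay in a WT stretch of at least 5 Mb (Kdm3a with 5.42 Mb, Ehmt2 and Wiz), against 15.8% of protein-coding genes. In KO they were Ehmt2 and Wiz, against 14.4%, since the KO peak left of Kdm3a shortened its stretch to 2.88 Mb. At the other end, Kdm4c lay in a stretch of 235 kb in WT and 297 kb in KO.

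**Figure D3:**
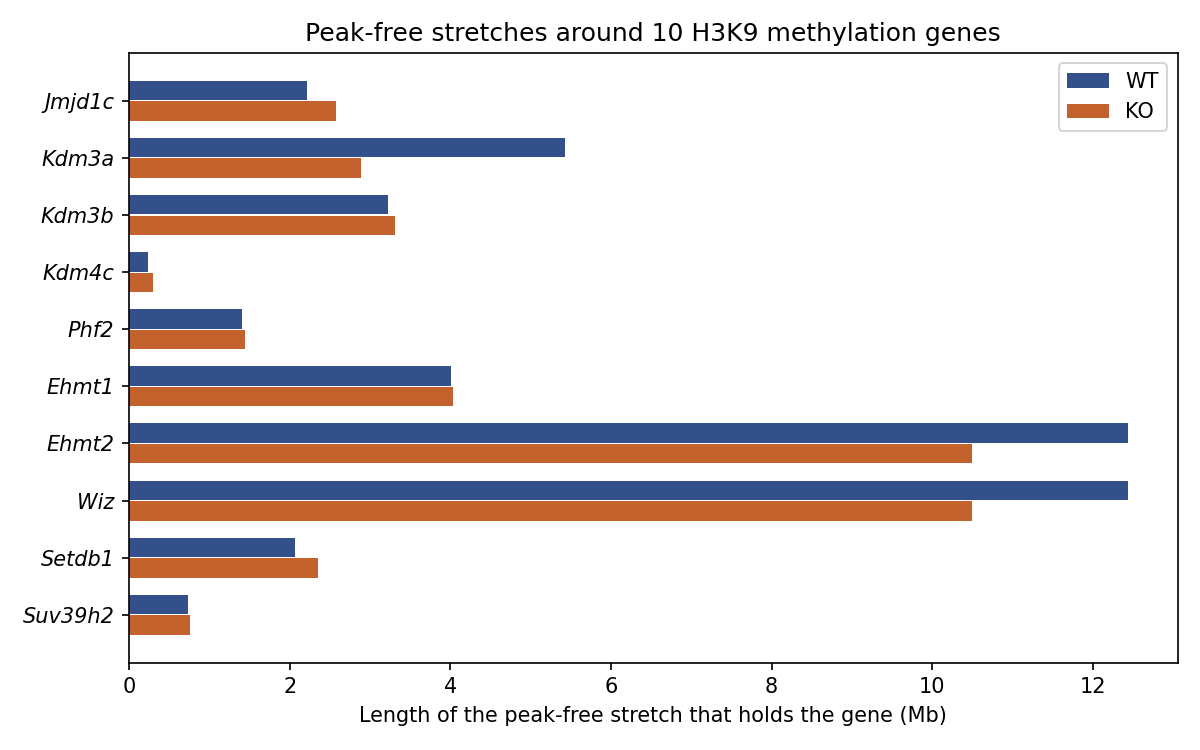
Length in Mb of the stretch between consecutive peaks that holds each gene, with blue bars for WT and orange bars for KO. Ehmt2 and Wiz share 1 stretch of 12.4 Mb in WT and 10.5 Mb in KO, and the bars of Kdm4c, 0.235 and 0.297 Mb, are the shortest.

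Ehmt1, the partner of Ehmt2, had a crowded neighbourhood and many peaks within 1 Mb, though none near the gene. The peak-free stretch that holds it was 4.01 Mb long in WT and 4.03 Mb in KO, with 118 and 119 coding genes inside. Ehmt1 lies on chromosome 2 from 24790769 to 24919643, between the calcium channel gene Cacna1b and Arrdc1, with 74 other coding genes within 1 Mb. All peaks within 1 Mb of Ehmt1 lay to its left, 20 in WT (12.2 to 30.9) and 15 in KO (8.40 to 24.7), from about 613 kb outward around Hnmt, Tbpl2 and the interleukin-1 family genes Il1f8 and Il1f9. On the right the first peak, near Olfm1, was 3265 kb away in each library. Of these 20 and 15 peaks, 8 in each list overlapped the other list. The KO to WT ratio was 0.750 (0.357 to 1.54).

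Setdb1 lies on chromosome 3 from 95323525 to 95357202, overlaps Cers2, and has LOC115489748 on its left and 4930558C23Rik on its right. With 75 other coding genes within 1 Mb, Setdb1 had 1 peak there in each library, at the same place inside Vps45, 687 kb to the right. The WT peak ran from 96044547 to 96044944 with a fold of 4.58, and the KO peak from 96044615 to 96044937 with a fold of 7.50. Their −log10 q values, 9.06 and 17.99, were at percentiles 98.3 and 99.3 of their lists.

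Suv39h2 sits near the start of chromosome 2, from 3455815 to 3474986, where it overlaps the DNA repair gene Dclre1c between Meig1 and Hspa14. The outermost peak or gene lay 0.406 Mb from it, so its window of 1 Mb on each side was cut to 1.42 Mb in all. Even so Suv39h2 had 17 WT peaks (9.90 to 27.2) and 25 KO peaks (16.2 to 36.9), or 11.9 and 17.5 per Mb. On the left there were 6 in each library, around Fam171a1. On the right there were 11 in WT and 19 in KO, in or beside Frmd4a. This difference of 8 was the widest of the 10 loci in number of peaks; 7.09% of all protein-coding genes differed by 8 or more in either direction. The ratio was 1.47 (0.763 to 2.90). Of the 17 WT and 25 KO peaks, 10 in each overlapped the other list, among them 1 narrow peak with a pileup of 369 in WT and 342 in KO. Duplicate tags were kept and no control library was used, and whether that peak marks H3K9me2 was not tested.

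Summed over the 10 loci, which have no window in common, there were 70 peaks within 1 Mb in WT (54.6 to 88.4) and 76 in KO (59.9 to 95.1). The KO to WT ratio was 1.09 (0.774 to 1.52), against 1.02 over chromosomes 1 to 19, X and Y, which lies within that interval. The erasers gave 32 and 35 peaks and the writers and partners 38 and 41. More KO than WT peaks were counted at 4 loci (Kdm3a, Kdm4c, Phf2 and Suv39h2), against 37.0% of all protein-coding genes. Jmjd1c and Ehmt1 had fewer, against 31.2%, and the other 4 had equal numbers, against 31.8%. At the 6 loci with peaks in both libraries, every interval of the ratio held 1.02. These intervals were wide, running from 0.0127 to 78.5 at Setdb1, 0.238 to 2.98 at Jmjd1c and 0.475 to 3.10 at Phf2. Counts this small could set only a large difference apart from 1.02.

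Peaks near these genes were shared about as often as in the whole lists, and when pooled had lower median pileups but slightly higher median folds. In WT 34 of the 70 (48.6%, exact binomial interval 36.4 to 60.8%) overlapped a KO peak, against 46.4% of the whole list. In KO 34 of the 76 (44.7%, 33.3 to 56.6%) overlapped a WT peak, against 45.9%. Median pileup was 22.6 in WT and 18.0 in KO near the genes, against 25.3 and 19.1 over the lists. Median fold was 2.76 in WT and 3.15 in KO near the genes, against 2.72 and 3.08. The loci differed in this. Folds above the list median were held by 15 of 15 WT and 15 of 16 KO peaks at Kdm4c. Jmjd1c had 5 of 7 and 5 of 6, and Phf2 had 5 of 10 and 5 of 12. Lower shares were seen at Ehmt1, with 6 of 20 and 5 of 15, and at Suv39h2, with 5 of 17 and 11 of 25. The single peaks at Setdb1 and Kdm3a were above the list medians. At a q of 1e-05 or lower there were 4 of the 70 WT peaks (5.71%, against 13.0% of the WT list) and 5 of the 76 KO peaks (6.58%, against 8.10%). The caller used a fragment length of 292 bp in WT and 189 bp in KO, on which pileup, fold, width and q depend. Such values are printed for both libraries but can be read within a list only. Which regions pass the authors' q cutoff depends on that length as well. The KO to WT counts, ratios and distances carry this limit.

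The loci were then set beside coding genes of like gene density, a description with no test. Coding genes with 0 to 9 other coding genes within 1 Mb had a median of 29 WT and 30 KO peaks there, those with 40 to 79 had 1 and 2, and those with 80 or more had 3 and 3. Jmjd1c, with 7 other coding genes, had 7 and 6 peaks, below the lower quartiles of 13 and 14 for genes of its class. Ehmt1, with 74, had 20 and 15, above the upper quartiles of 9 and 9 for its class. Both readings depend on where the classes were cut. The class of 80 or more, next above that of Ehmt1, had upper quartiles of 21 and 22. For Jmjd1c the next class, 10 to 19, had lower quartiles of 7 and 7. Suv39h2 (12 other genes), Kdm4c (15) and Phf2 (21) lay on or within the quartiles of their classes in both libraries. So did Kdm3a (37), Kdm3b (35), Wiz (43), Setdb1 (75) and Ehmt2 (120), for which the lower quartile was 0. The counts of Suv39h2 came from its window cut to 1.42 Mb and were not scaled to a full window. Its place within its class is therefore uncertain. Each class holds genes that are neighbours and share peaks, so its spread is no error of a locus.

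**Figure D4:**
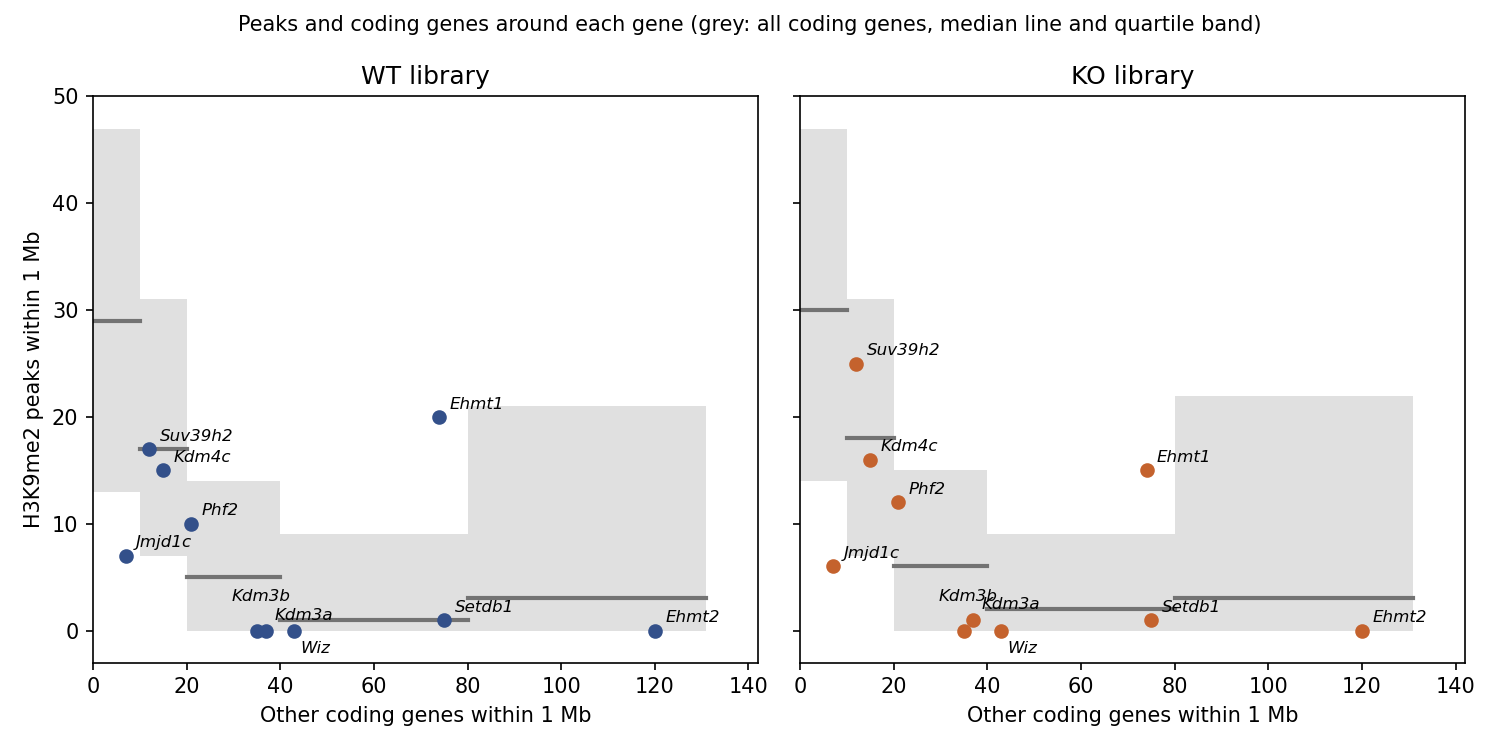
Peaks within 1 Mb of each gene (y axis) against the number of other protein-coding genes within 1 Mb (x axis), WT on the left and KO on the right, with grey lines for the median and grey bands for the quartiles of all protein-coding genes in 5 classes. Jmjd1c, at 7 and 6 peaks, lies below its band, and Ehmt1, at 20 and 15, lies above its band.

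The wider H3K9 pathway held 26 further genes. In WT 23 of them had no peak within 100 kb (88.5%) and in KO 20 (76.9%), beside the 72.0% and 71.4% of all protein-coding genes. Mecom, a PR-domain gene of blood stem cells, had peaks in the gene body, with 29 in WT and 28 in KO within 2 kb of it. Zfp462, a zinc finger gene whose product associates with Ehmt1 and Ehmt2, also had them, 3 and 4. Trim28, the corepressor that brings in Setdb1, had its nearest peak at 98.4 kb in WT and 57.6 kb in KO. Prdm16, Kdm4d and Phf8 had a KO peak but no WT peak within 100 kb, 1 each, at 3.82, 83.5 and 18.4 kb, against 3.68% of all protein-coding genes, and 0 of the 26 had the reverse, against 3.04%. The other 20, among them the heterochromatin protein genes Cbx1, Cbx3 and Cbx5, the writer Suv39h1 and the eraser Kdm1a, had none in either library, as had 68.3% of all protein-coding genes. The largest distance among these genes was at Kdm1a, 5689 kb in WT and 7793 kb in KO.

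Absence of peaks did not tell cell types apart. The 6 B cell markers (among them Cd79a and Pax5), 5 T cell markers and 3 plasma cell markers had no peak within 2 kb of the gene, and of 4 myeloid markers Adgre1 had 1 in each library. Among all protein-coding genes 90.3% in WT and 90.1% in KO were likewise without a peak at that distance, so these counts are near the background. The labelled cell type can therefore not be checked from these lists.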

How the data were processed

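H3K9me2 CUT&Tag was done on 1 WT and 1 KO library of activated B cells, grouped by the labelled genotype. The submitters' processing notes name the build mm10 and, without their roles, deepTools, HOMER, MACS2, Picard, SAMtools 1.11, Bowtie2 2.4.2 and Trim Galore 0.6.6. Per the file headers, the authors called broad peaks in each library with MACS2 2.2.7.1 at a q of 0.01, keeping duplicates, without a control. The deposited pileup is an unscaled coverage signal, the deposited fold is a ratio to local background, and the authors' p-value and q-value columns are −log10 values.

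On the X, the Y and chromosomes 1 to 19, 31623 WT and 32149 KO peaks were set against 21774 protein-coding RefSeq genes of GRCm38.p6, leaving out 348 patch genes. Coordinates count from 1. Distance ran from gene body edge to peak edge, and windows were the gene body with 100 kb or 1 Mb on both sides. Intervals are exact 95% intervals for counting error only, and those of ratios treat the lists as independent. The interval functions were tested on simulated data (400 peaks, 500 genes) against direct enumeration, with 0 differences. Python 3.11.15, numpy 2.4.6, pandas 2.3.3, scipy 1.17.1 and matplotlib 3.10.9 were used.

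Genes named were the 10, their nearest coding neighbours, genes beside the nearest peaks, and pathway genes with a peak in the body or the extreme distances; others (Trim28, Prdm16, Kdm4d, Phf8 and the examples without peaks) and the peak-free stretches were chosen after values were seen. Values of 1 marker gene are not reported here. The members and lists were chosen with earlier results of these data known.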

Additional observations from a re-analysis of the deposited data

How the results depend on the processing

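Each count, distance and ratio over the 10 genes was recomputed with peaks at a q of 1e-05 or lower, peaks at least 1 kb wide, KO peaks widened by the 103 bp difference in fragment length, a pileup of 100 or more left out, peaks merged within 5 kb, equal numbers of peaks, and windows from the gene midpoint. The number of genes without a peak within 100 kb was 9 or 10 under every one of these settings, and the KO to WT ratio ran from 1 to 1.25. Both ends of that range rest on very few peaks, 2 in each library for the width limit and 5 in KO against 4 in WT for the q limit. Under the other settings the ratio ran from 1.03 to 1.18. The limits on q, width and pileup and the equal numbers only take peaks away, so there the number of genes without a peak could not fall below 9. Widening by 103 bp is small beside 100 kb. Merging leaves the nearest peak edge in place, and the midpoint of a gene without a peak in its body is farther from peaks than its edges. None of these settings could therefore bring the number below 9, so its steadiness is no check. Shares of all protein-coding genes under these settings are not given here. The limits on q and width moved the sums and the median distances by over 1.5 times. At the stricter q the sum within 1 Mb was 4 peaks in WT and 5 in KO, with median distances of 1053 and 1451 kb. With peaks at least 1 kb wide the sums were 2 and 2, with median distances of 2398 and 2291 kb. Both limits leave far fewer peaks in the lists. No paired analysis was possible because each genotype had 1 library. A locus with no peak is one where no region passed the authors' threshold, and broad low H3K9me2 could be missed there.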
